A study of Mus musculus with 12 samples.

Results

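Ribosome biogenesis and RNA polymerase I genes were followed in effector cytotoxic CD8+ T lymphocytes (CTL) that were re-stimulated through the T cell antigen receptor (TCR) with or without an inhibitor. The 53 genes were chosen by symbol from a list of known ribosome assembly factors, with earlier results of these data known. All 53 were present among the 11022 genes of the deposited expression table. The cells were CTL of P14 mice (female, 9 to 13 weeks old), whose transgenic TCR recognises the gp33-41 peptide, so the cells of a culture largely share 1 receptor and do not represent a mixed repertoire. The replicates came from 3 mice, with lymph node or spleen as the source, and cells were activated for 48 h with peptide and then expanded in interleukin 2 (IL-2). Each of the 4 groups held 3 cultures, all kept in 20 ng/mL IL-2: unstimulated CTL, CTL given 100 ng/mL gp33-41 for 4 h (TCR), CTL given the peptide with 10 µM IC87114, an inhibitor of the PI3K catalytic subunit p110δ (TCR + PI3Kdi), and CTL given the peptide with 2 µM PD184252, an inhibitor of the kinases MEK1/2 that act above ERK1/2 (TCR + MEKi). DMSO served as vehicle. The inhibitors were not given to unstimulated cells, so no value here separates an effect on the response to the peptide from an effect on resting CTL.

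Ribosomes are built in the nucleolus, where RNA polymerase I copies the repeated rDNA genes into 1 long precursor that holds the 18S, 5.8S and 28S rRNAs. Small nucleolar ribonucleoprotein particles (snoRNPs) guide chemical modification of this precursor, the small subunit (SSU) processome folds and cuts its 18S part, and separate sets of factors assemble the 40S and 60S subunits and accompany them to the cytoplasm. Activated T cells are known to enlarge their nucleoli as they grow. The mRNA of the factors was measured here, and neither rRNA synthesis nor ribosome number was.

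Promoter sequence is shown for the members whose mRNA moved most and for named members with an E-box, the DNA element bound by the MYC family. The motif searched was CACGTG, which reads the same on both strands. In the RefSeq promoter windows (GRCm38.p6, 250 bases before to 50 bases after the start) 9 of the 47 members with an entry held it, which is 19.1%, against 972 of 7970 genes of the table (12.2%) and 2187 of 27025 genes in all (8.09%). A match describes the letters only. Rrn3, which brings RNA polymerase I to the promoter, held 2 copies beginning 215 and 48 bases before its start (the motif is in capitals in these 30-base windows), and Ltv1, a 40S assembly factor, held 1.
Rrn3 at chr16:13780472-13780501, plus strand: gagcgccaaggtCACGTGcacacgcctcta
Rrn3 at chr16:13780639-13780668, plus strand: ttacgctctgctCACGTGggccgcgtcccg
Ltv1 at chr10:13193092-13193121, minus strand: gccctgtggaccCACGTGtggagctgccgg
The windows of Polr1c and Ppan, the members with the largest rise on stimulation, did not hold the motif. The 250 bases before their starts are printed 5′ to 3′ on the gene's own strand, with nothing in capitals.
Polr1c at chr17:46248046-46248295, minus strand: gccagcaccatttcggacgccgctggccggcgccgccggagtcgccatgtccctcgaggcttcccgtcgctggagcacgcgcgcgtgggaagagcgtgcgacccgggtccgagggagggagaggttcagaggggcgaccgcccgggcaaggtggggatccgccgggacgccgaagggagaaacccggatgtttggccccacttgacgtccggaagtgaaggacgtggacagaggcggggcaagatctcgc
Ppan at chr9:20887925-20888174, plus strand: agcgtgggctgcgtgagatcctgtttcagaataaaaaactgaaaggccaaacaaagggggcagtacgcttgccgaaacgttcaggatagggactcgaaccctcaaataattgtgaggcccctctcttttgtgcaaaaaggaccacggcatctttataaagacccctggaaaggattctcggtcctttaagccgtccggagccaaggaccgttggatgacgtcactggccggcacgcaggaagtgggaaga

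The members were well expressed in every group. Values are FPKM, fragment counts divided by gene length and scaled to sequencing depth, which can be compared between genes. In unstimulated CTL the members ran from a mean of 9.44 FPKM (Polr1e) to 1012 FPKM (Npm1), with a median of 45.7, and 52 of the 53 lay above the median gene of the table. The sum over the 53 members was 4065, 3977 and 4380 FPKM in unstimulated CTL, 6575, 6544 and 6423 FPKM after TCR stimulation, 5500, 5261 and 5259 FPKM with PI3Kdi, and 5345, 5531 and 5362 FPKM with MEKi. Every stimulated culture lay above every unstimulated one, and every inhibitor culture lay between the unstimulated and the TCR cultures. Rescaled to a common FPKM sum per culture, the group means of this sum were 4775 (unstimulated), 5648 (TCR), 5252 (TCR + PI3Kdi) and 5626 (TCR + MEKi), so the MEKi group then lay beside the TCR group.

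**Figure D1:**
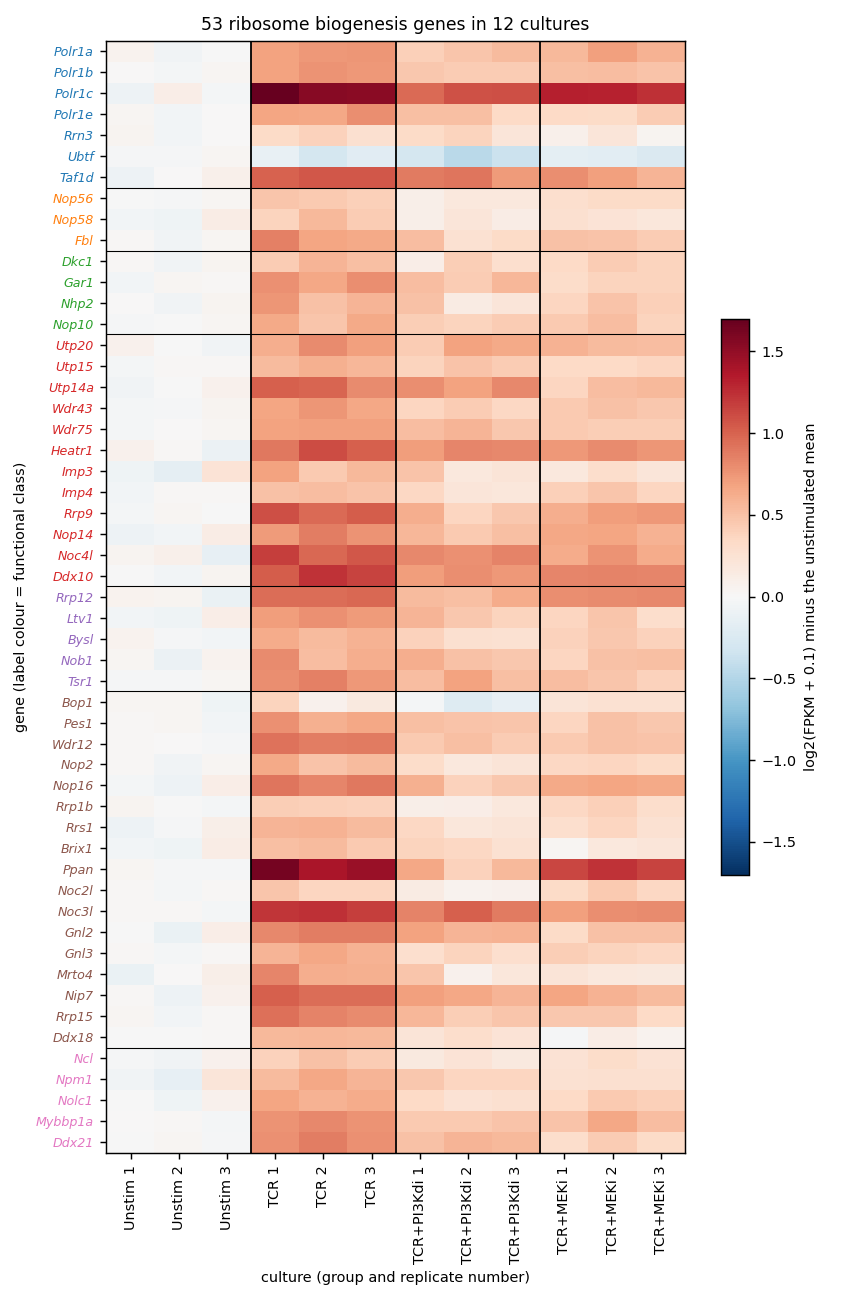
Level of each of the 53 genes (rows, label colour by functional class) in each of the 12 cultures (columns), as log2(FPKM + 0.1) minus the mean of the 3 unstimulated cultures. Red is higher: Polr1c and Ppan are the darkest rows after TCR stimulation and the Ubtf row is blue. Colours use the deposited scaling, and on a common FPKM sum the MEKi cultures are not below the TCR cultures in the median over the genes.

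Depth was roughly estimated at 7820000 to 13220000 reads per culture from low values, which did not resolve into whole reads. At these depths the member with fewest reads in a culture (Polr1e) would rest on about 364 of them, with a counting error of 5.2%. These read numbers are approximate. Replicates correlated at r = 0.992 to 0.995 across genes, and the median coefficient of variation of the members within a group was 3.54% to 4.65%. All 7 CTL markers were present (Cd8a at 213 to 430 FPKM, Gzmb at 8279 to 13582 FPKM), while the B cell and erythroid markers (4 of each) were not among the genes of the table. Of the macrophage and dendritic cell markers Cd68 (4.88 to 8.44 FPKM over the cultures) and Itgax (0.29 to 0.75 FPKM) were present, and Lyz2, Csf1r, Itgam, Adgre1, Flt3 and Xcr1 were not. The CD4 T cell marker Cd4 stood at 0.77 FPKM in unstimulated CTL, 2.69 after TCR stimulation, 2.94 with PI3Kdi and 0.45 with MEKi, and Zbtb7b, the other marker of that lineage, at 7.37, 5.29, 3.92 and 9.95 FPKM in the same order. Of the NK cell markers Klrb1c stood at 5.39, 1.79, 2.27 and 1.59 FPKM, and Ncr1 was not in the table. The part of these shifts in the results below was not tested, and in bulk RNA fewer cells of a type cannot be told apart from less RNA per cell.

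The first question was how triggering the TCR of effector CTL changes the mRNAs of ribosome biogenesis. On stimulation 52 members rose and 1, Ubtf, fell (limma on log2(FPKM + 0.1), Benjamini-Hochberg adjusted p under 0.05 over all genes), where 33.6% of all genes rose and 34.9% fell. The median change of the members was 0.69 on the log2 scale, against -0.01 for all genes, and the range ran from -0.21 (Ubtf) to 1.62 (Polr1c). More than a 2-fold rise was found for 8 members (8.87% of all genes, with 11.1% falling by as much): Polr1c, Ppan, Noc3l, Ddx10, Noc4l, Taf1d, Rrp9 and Heatr1. In the same 52 genes all 3 TCR cultures lay above all 3 unstimulated cultures, which 34.7% of all genes did, and Ubtf was separate in the other direction (36.5%). The sum of FPKM over all genes rose from 480159 to 639396, and on a common sum the median of all genes moved to -0.41 and that of the members to 0.28, a distance of 0.69. Under that scaling 41 members were higher and 2, Ubtf and Bop1, were lower (15.3% and 60.9% of all genes), and 2 (Polr1c and Ppan) passed 2-fold upwards (5.87% of all genes). Under the deposited scaling, the common sum and quantile normalisation alike, 41 members were called higher (15.1% of all genes) and Ubtf lower (33.3% of all genes).

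**Figure D2:**
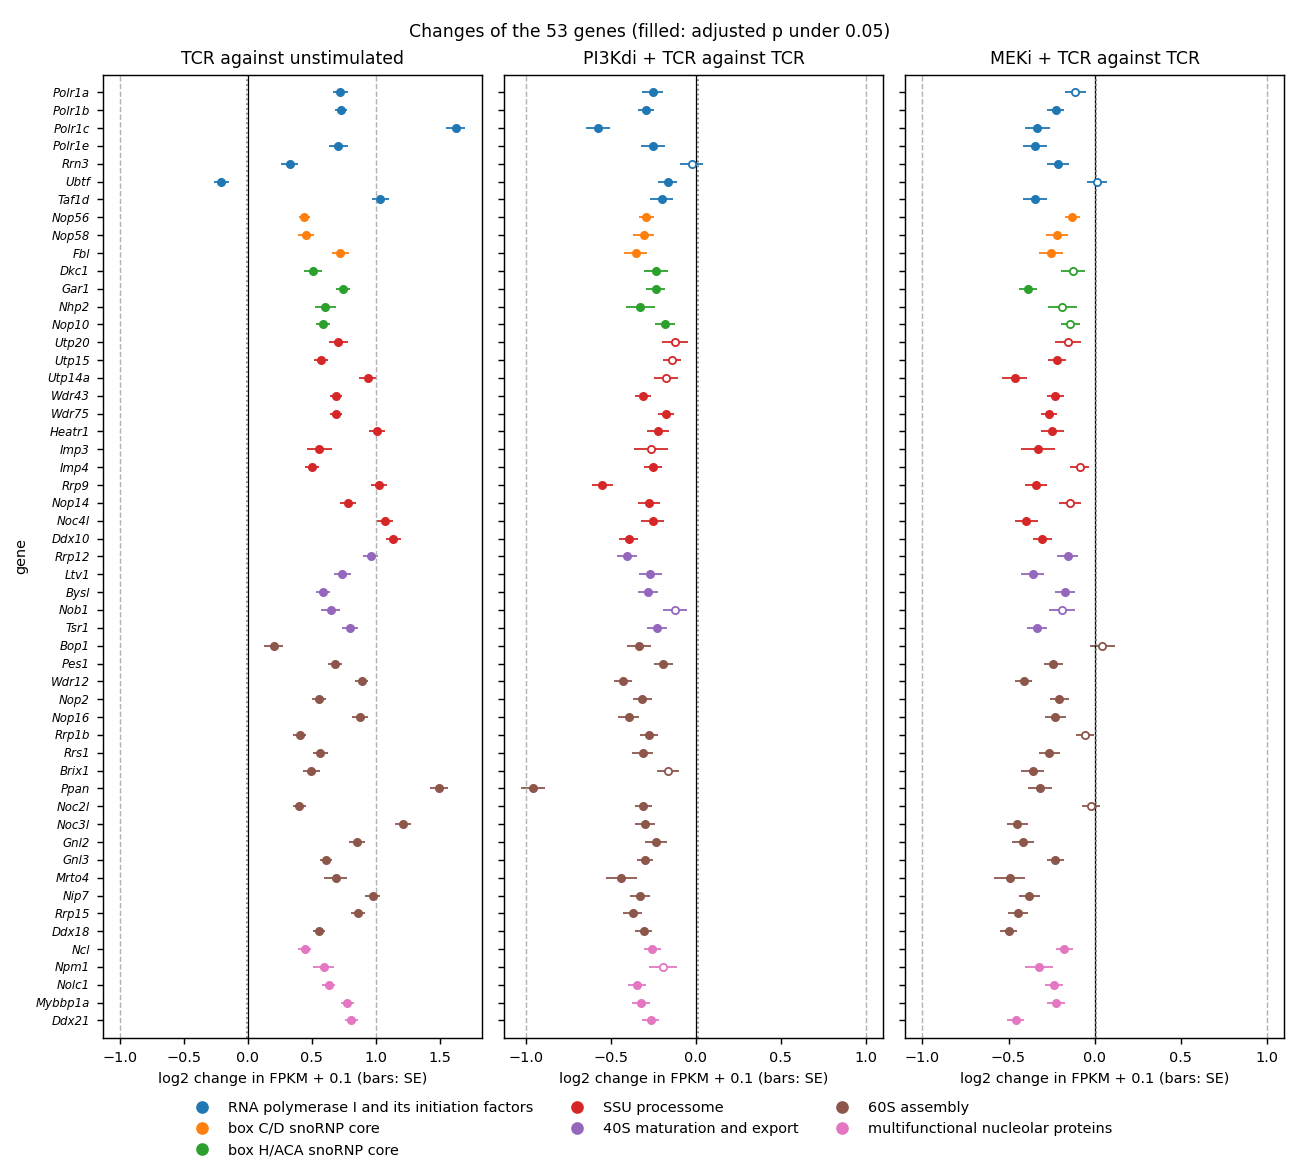
Log2 change of each member with its standard error (SE) in 3 comparisons under the deposited scaling, where filled points have an adjusted p under 0.05. Dashed lines mark a 2-fold change and the dotted line the median of all genes. The TCR comparison spreads from -0.21 to 1.62, while the inhibitor comparisons lie between -0.96 and 0.04. On a common FPKM sum, 17 of the members called lower with MEKi have the opposite sign.

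The second comparison asked what the response to antigen looks like while PI3K p110δ is inhibited. With PI3Kdi 45 members were lower than with TCR alone and 0 were higher (12.8% and 12.7% of all genes), with a median of -0.28 against 0.02 for all genes. Past 2-fold, 0 members were called, where 1.38% of all genes were lower and 0.499% higher. An unadjusted p under 0.05 in limma was found for 50 members, and for 4156 of all 11022 genes. The changes ran from -0.96 (Ppan) to -0.02 (Rrn3). Ppan stood next to the 2-fold limit and passed it when TCR replicate 2 or PI3Kdi replicate 1 was left out, which gave a count of 1. The groups were separate, with PI3Kdi lower, in 48 members and with PI3Kdi higher in 0 (18.6% and 19% of all genes). On a common FPKM sum the median of all genes moved to 0.19 and that of the members to -0.09, and 13 members were lower with 0 higher (5.04% and 34.6% of all genes): Ppan, Polr1c, Rrp9, Mrto4, Wdr12, Rrp12, Nop16, Ddx10, Rrp15, Fbl, Nolc1, Nop2 and Noc2l. These 13 were called lower under all 3 scalings, which 4.97% of all genes were (10% were called higher).

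The third comparison used MEKi in the same way. Under the deposited scaling 41 members were lower than with TCR alone and 0 higher (18.2% and 18.9% of all genes), with a median of -0.24 against 0.01 for all genes, but on a common FPKM sum the median was 0.02, with 6 members higher and 7 lower (50.2% and 5.88% of all genes). The median of all genes moved to 0.26 under that scaling, so that the members stayed 0.24 below it. Past 2-fold under the deposited scaling, 0 members were called, where 2.51% of all genes were lower and 0.98% higher, and the changes ran from -0.50 (Ddx18) to 0.04 (Bop1). An unadjusted p under 0.05 in limma was found for 45 members, and for 5109 of all 11022 genes. The groups were separate, with MEKi lower, in 47 members and with MEKi higher in 0 (24.1% and 24.6% of all genes). The 7 members called lower under all 3 scalings (5.87% of all genes, with 16.4% called higher) were Ddx18, Mrto4, Utp14a, Ddx21, Noc3l, Rrp15 and Gnl2. On the common sum the 6 higher members were Ubtf, Nop56, Imp4, Bop1, Rrp1b and Noc2l.

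The inhibitor groups were then compared with each other, which tests the difference between their effects because both were set against the same TCR cultures. Of the 53 members 10 were higher with MEKi than with PI3Kdi and 6 were lower (14.5% and 14.4% of all genes), and 0 passed 2-fold (1.39% and 1.71% of all genes). At an unadjusted p under 0.05 in limma there were 21 members, and 4469 of all 11022 genes. The groups were separate with MEKi higher in 18 members and lower in 11 (20.9% and 22.7% of all genes). The share of members called lay close to that of all genes, and the median difference was 0.05. Without MEKi replicate 1 the counts were 7 higher and 3 lower, and without MEKi replicate 2 they were 6 and 4. The shares of all genes called in these smaller fits are not given here, so these counts describe the members only. On a common FPKM sum 21 members were higher and 1, Utp14a, was lower (21.1% and 9.24% of all genes). The 10 members higher with MEKi under all 3 scalings (14.4% of all genes) were Ppan, Bop1, Noc2l, Rrp12, Polr1c, Rrp1b, Rrp9, Ubtf, Imp4 and Nop56, and Utp14a was lower under all 3 (9.17%). For the 37 members that did not pass, the 95% intervals of the difference reached at most from -0.30 to 0.32 on the log2 scale.

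**Figure D3:**
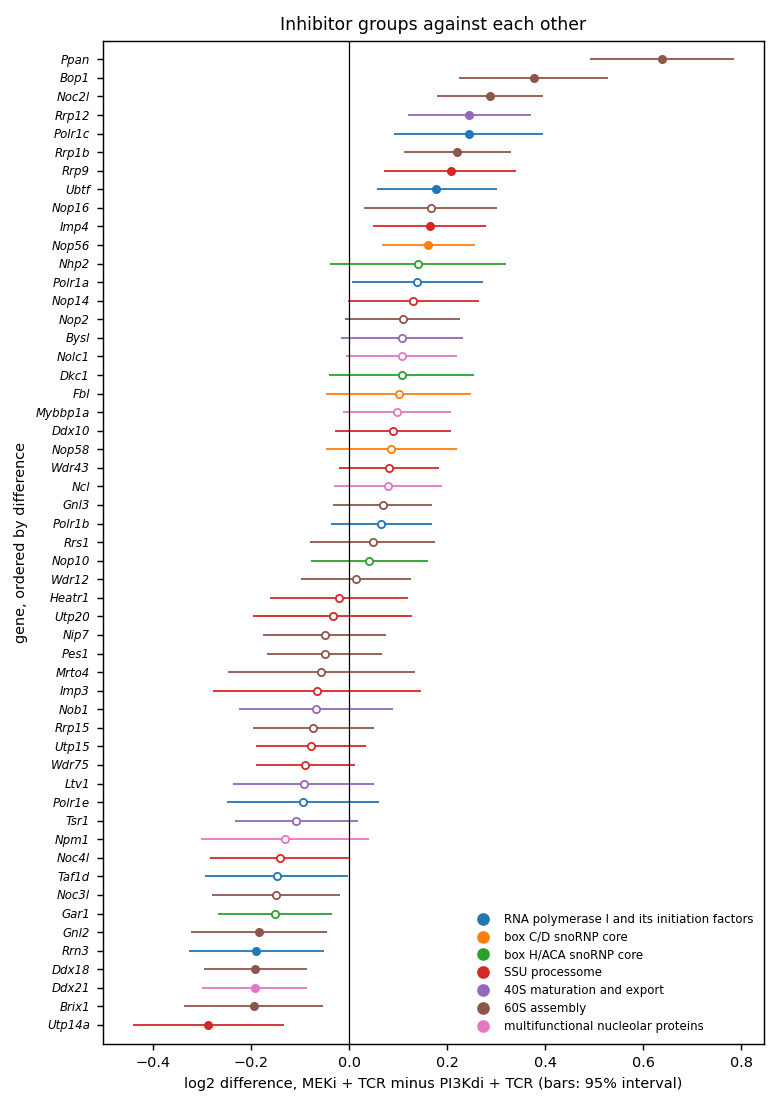
Difference between the inhibitor groups (TCR + MEKi minus TCR + PI3Kdi, log2 scale) for each member in order of size, with 95% intervals; filled points have an adjusted p under 0.05. Ppan at 0.64 stands apart at the top and Utp14a at -0.29 is lowest, and 32 of the 53 intervals include 0.

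Against unstimulated CTL, both inhibitor groups still held most members at a higher level. With PI3Kdi 50 members were higher than in unstimulated CTL and 1, Ubtf, was lower (31.7% and 30.8% of all genes), and 1, Polr1c, passed 2-fold upwards (7.16% of all genes, with 7.43% downwards). With MEKi 47 were higher and Ubtf was lower (28.9% and 30.7% of all genes), and 2, Polr1c and Ppan, passed 2-fold upwards (6.95% of all genes, with 6.46% downwards). Groups were separate with the inhibitor culture higher in 48 members in both comparisons (33.4% of all genes with PI3Kdi and 32.7% with MEKi), and lower for Ubtf (32.6% and 34%). The medians were 0.45 and 0.42. On a common sum 33 members were higher and 3 lower with PI3Kdi (17.9% and 46.8% of all genes), and 43 higher and 1 lower with MEKi (20.6% and 41.5%). The 3 members lower with PI3Kdi on that scale were Ubtf, Bop1 and Noc2l. Under all 3 scalings 33 members were higher with PI3Kdi (17.5% of all genes) and 43 with MEKi (20.2%), and Ubtf was lower in both (30.6% and 30.4%).

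RNA polymerase I itself was covered by 4 subunit genes and 3 genes of its initiation factors. Polr1c encodes a subunit that RNA polymerases I and III share. It stood at 33.3, 38.2 and 34.5 FPKM in unstimulated CTL, 121.7, 103.1 and 102.8 FPKM with TCR, 69.0, 74.5 and 75.7 FPKM with PI3Kdi, and 88.4, 87.1 and 83.8 FPKM with MEKi. The 4 groups did not overlap and their means came in the order unstimulated, PI3Kdi, MEKi, TCR. The rise on stimulation was 3.09-fold in the means (log2 change 1.62 ± 0.07 SE, adjusted p = 3.72e-11). With PI3Kdi the log2 change was -0.58 ± 0.07 (adjusted p = 5.71e-05) and with MEKi it was -0.33 ± 0.07 (adjusted p = 0.00223), which on a common FPKM sum came to -0.39 (adjusted p = 0.000851) and -0.07 (adjusted p = 0.43). The inhibitor groups differed by 0.24 ± 0.07 (adjusted p = 0.0183), a call lost without PI3Kdi replicate 1, MEKi replicate 1 or MEKi replicate 2 (adjusted p = 0.0525 to 0.0676).

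The catalytic core is formed by the products of Polr1a and Polr1b. Polr1a, the largest subunit, stood at 18.3, 16.8 and 17.5 FPKM in unstimulated CTL, 28.2, 29.3 and 29.6 FPKM with TCR, 23.1, 24.4 and 25.6 FPKM with PI3Kdi, and 25.7, 28.5 and 26.4 FPKM with MEKi. Polr1b, the second subunit, stood at 26.2, 25.6 and 26.7 FPKM, then 42.0, 44.6 and 43.8 FPKM with TCR, 35.9, 35.2 and 35.3 FPKM with PI3Kdi, and 37.3, 37.6 and 36.5 FPKM with MEKi. Both genes were higher in every stimulated culture than in any unstimulated one, by a log2 change of 0.72 ± 0.06 for Polr1a and 0.73 ± 0.05 for Polr1b with TCR. With PI3Kdi the changes were -0.25 ± 0.06 (Polr1a, adjusted p = 0.00851) and -0.29 ± 0.05 (Polr1b, adjusted p = 0.000529), and neither kept its call on a common FPKM sum (-0.07, adjusted p = 0.473, and -0.11, adjusted p = 0.15). With MEKi Polr1b changed by -0.23 ± 0.05 (adjusted p = 0.0021), which became 0.03 on the common sum, and the change of -0.11 in Polr1a had a 95% interval of -0.25 to 0.02. Polr1e, a subunit outside the catalytic core, was the lowest member, at 9.68, 9.12 and 9.52 FPKM in unstimulated CTL, 15.07, 14.99 and 16.38 FPKM with TCR, 13.48, 13.51 and 11.98 FPKM with PI3Kdi, and 11.9, 11.8 and 12.7 FPKM with MEKi. It rose by 0.71 ± 0.07 on stimulation (adjusted p = 5.54e-07). The inhibitor changes were -0.25 (PI3Kdi, adjusted p = 0.0193, lost without TCR replicate 3 or PI3Kdi replicate 3 at adjusted p = 0.0837 and 0.094) and -0.35 (MEKi, adjusted p = 0.00188). Both calls were lost on the common sum (-0.07, adjusted p = 0.493, and -0.09, adjusted p = 0.372).

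**Figure D4:**
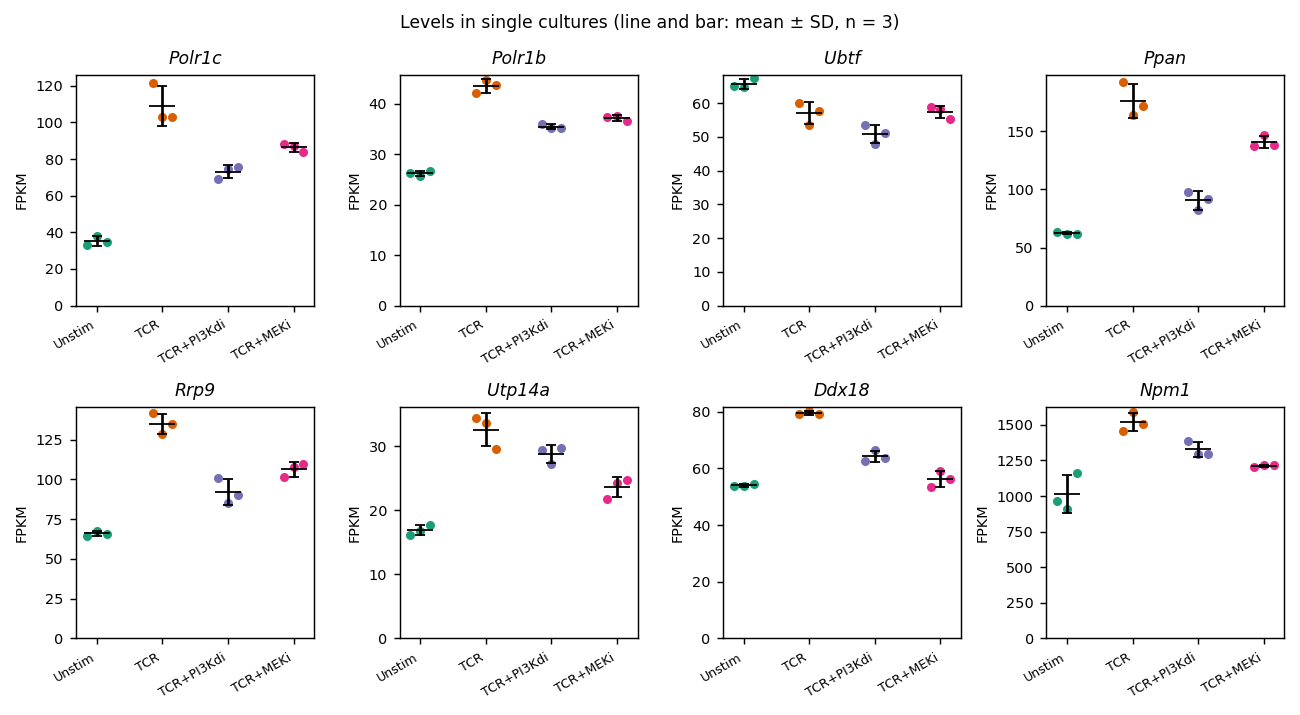
FPKM in each culture (points) with mean ± SD (n = 3) for 8 members, on axes that start at 0. Polr1c, Ppan and Rrp9 have TCR + PI3Kdi below TCR + MEKi, Utp14a and Ddx18 the other order, and Ubtf is lower in every stimulated group than in unstimulated CTL.

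The initiation factors did not move as 1 group. Ubtf encodes UBF, the HMG-box protein that keeps rDNA open for transcription. It stood at 65.1, 64.8 and 67.5 FPKM in unstimulated CTL, 60.1, 53.4 and 57.6 FPKM with TCR, 53.4, 47.9 and 51.1 FPKM with PI3Kdi, and 58.8, 58.1 and 55.4 FPKM with MEKi. All 9 stimulated cultures lay below the 3 unstimulated ones. The fall with TCR was -0.21 ± 0.06 (adjusted p = 0.00502) and -0.62 on a common FPKM sum. The change with PI3Kdi against TCR was -0.17 (adjusted p = 0.0455), which became 0.02 on a common sum and was lost without TCR replicate 1 or 3 or PI3Kdi replicate 2 or 3 (adjusted p = 0.0912 to 0.171). Rrn3 stood at 25.04, 23.33 and 24.28 FPKM in unstimulated CTL, 30.3, 31.8 and 29.2 FPKM with TCR, 30.4, 31.4 and 27.9 FPKM with PI3Kdi, and 25.59, 28 and 25.02 FPKM with MEKi. It rose by 0.33 ± 0.07 on stimulation (adjusted p = 0.000404), but its value on a common sum was -0.09. With PI3Kdi the change was -0.02, with a 95% interval of -0.16 to 0.11. With MEKi it was -0.21 (adjusted p = 0.0183), 0.05 on a common sum, and lost without TCR replicate 2 or MEKi replicate 1 or 3 (adjusted p = 0.0611 to 0.08). Taf1d, a subunit of the selectivity factor SL1, stood at 32.3, 34.6 and 36.7 FPKM in unstimulated CTL, 68.9, 71.7 and 71.9 FPKM with TCR, 63.8, 64.7 and 56.9 FPKM with PI3Kdi, and 59.6, 56.1 and 51.6 FPKM with MEKi. Its rise was 2.05-fold (adjusted p = 3.7e-09). The MEKi change was -0.35 (adjusted p = 0.00116), and the PI3Kdi change was -0.20 (adjusted p = 0.0441). On a common sum both calls were lost (-0.09 and -0.02), and the PI3Kdi call was also lost without any TCR culture or PI3Kdi replicate 3 (adjusted p = 0.0638 to 0.186). The Taf1d gene holds 8 small nucleolar RNA genes and shares exon sequence with an antisense gene over 235 bases. Whether counting used the strand is not given in the sources used here.

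All genes of the snoRNP cores rose on stimulation, which 33.6% of all genes did. The 3 box C/D proteins, which carry the guide RNAs for 2′-O-methylation, rose by 0.44 (Nop56), 0.46 (Nop58) and 0.72 (Fbl, the methyltransferase). On a common FPKM sum Fbl alone of the 3 kept its call, where 15.3% of all genes rose. Nop56, the most abundant of them, stood at 197, 195 and 202 FPKM in unstimulated CTL, 275, 269 and 263 FPKM with TCR, 213, 224 and 224 FPKM with PI3Kdi, and 242, 248 and 248 FPKM with MEKi. All 4 groups were separate. On a common FPKM sum its rise was 0.03, without a call. With PI3Kdi its change was -0.29 ± 0.05 (adjusted p = 0.000313), and -0.11 on a common sum (adjusted p = 0.0953). With MEKi it was -0.13 (adjusted p = 0.0352), lost without any single culture other than TCR replicate 3 (adjusted p = 0.0696 to 0.105), and 0.13 and 0.06 on a common sum and after quantile normalisation. The inhibitor groups differed by 0.16 ± 0.05 (adjusted p = 0.0138, and 0.0539 without MEKi replicate 3). Some of the reads of Nop56 are not unique to it: 11.6% of its 100-base stretches occur in another transcript, and for Fbl the share is 15.3%. The 4 box H/ACA proteins, which serve pseudouridylation, all rose, by 0.51 (Dkc1, the pseudouridine synthase) to 0.74 (Gar1). On a common sum 3 of the 4 kept the call (15.3% of all genes rose), and Dkc1 did not (0.10, adjusted p = 0.295). Nhp2, the highest of the 4, stood at 135, 128 and 139 FPKM in unstimulated CTL, 225, 190 and 200 FPKM with TCR, 189, 147 and 155 FPKM with PI3Kdi, and 173, 189 and 177 FPKM with MEKi. All 4 were lower with PI3Kdi (-0.33 to -0.18) under the deposited scaling, and 0 kept a call on a common sum (12.8% and 5.04% of all genes were lower). The call for Nhp2 (adjusted p = 0.011) was lost without TCR replicate 1 or PI3Kdi replicate 2 (adjusted p = 0.055 and 0.0569). With MEKi Gar1 alone of the 4 passed (-0.39, adjusted p = 7.87e-05), where 18.2% of all genes were lower. Its call was lost on a common sum (-0.125, adjusted p = 0.0693).

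The SSU processome is the large particle that forms around the 5′ part of the precursor with the U3 snoRNA. Its 12 members all rose on stimulation (0.50 to 1.14, median 0.75), and 4 passed 2-fold (33.6% and 8.87% of all genes): Ddx10 (2.21-fold), Noc4l (2.10-fold), Rrp9 (2.04-fold) and Heatr1 (2.02-fold). On a common FPKM sum 10 of the 12 were called higher (15.3% of all genes). Rrp9, a protein of the U3 snoRNP, stood at 64.7, 67.7 and 65.8 FPKM in unstimulated CTL, 141, 128 and 135 FPKM with TCR, 101, 85.2 and 90.4 FPKM with PI3Kdi, and 101, 108 and 110 FPKM with MEKi. The PI3Kdi change was -0.55 ± 0.06 (adjusted p = 2.81e-05), and -0.37 on a common FPKM sum. The MEKi change was -0.34 ± 0.06 (adjusted p = 0.000716), and -0.08 on a common sum without a call. The inhibitor groups differed by 0.21 (adjusted p = 0.0228), a call lost without PI3Kdi replicate 2 or 3 or MEKi replicate 2 or 3 (adjusted p = 0.0671 to 0.108). Utp14a, a processome protein on the X chromosome, stood at 16.2, 16.8 and 17.7 FPKM in unstimulated CTL, 34.4, 33.7 and 29.6 FPKM with TCR, 29.3, 27.2 and 29.7 FPKM with PI3Kdi, and 21.8, 24.3 and 24.7 FPKM with MEKi. It had the opposite order to Rrp9: the MEKi change was -0.46 ± 0.07 (adjusted p = 0.000199), and the PI3Kdi change of -0.17 had overlapping groups (95% interval -0.33 to -0.02, adjusted p = 0.0907, and 0.0348 without TCR replicate 3). The inhibitor groups differed by -0.29 ± 0.07 (adjusted p = 0.00786). Exons of Utp14a overlap an opposite-strand gene over 473 bases. Of the 12 members 8 were lower with PI3Kdi and 9 with MEKi under the deposited scaling (12.8% and 18.2% of all genes). On a common sum 2 were lower with PI3Kdi (5.04% of all genes), while with MEKi 1 was lower and 1 higher (5.88% and 50.2% of all genes).

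The 5 genes of late 40S maturation and export all rose on stimulation (0.59 to 0.96), which 33.6% of all genes did. Rrp12, which helps both pre-ribosomal subunits leave the nucleus, stood at 17.5, 17.4 and 15.6 FPKM in unstimulated CTL, 32.7, 32.7 and 33.2 FPKM with TCR, 24.42, 24 and 26.13 FPKM with PI3Kdi, and 29.3, 29.4 and 29.6 FPKM with MEKi. The groups did not overlap. The rise was 1.95-fold and the PI3Kdi change -0.40 ± 0.06 (adjusted p = 0.000217). The MEKi change was -0.16 (adjusted p = 0.0494), lost without any 1 of the 6 cultures compared (adjusted p = 0.0837 to 0.115) and 0.10 on a common FPKM sum. In the fit with the replicate number as a block the adjusted p was 0.0593. The difference between the inhibitor groups was 0.25 ± 0.06 (adjusted p = 0.00602). Ltv1, the most abundant of the 5, stood at 41.6, 40.7 and 46.6 FPKM in unstimulated CTL, 70.0, 73.8 and 70.9 FPKM with TCR, 64.0, 58.8 and 55.9 FPKM with PI3Kdi, and 55.2, 59.5 and 52.7 FPKM with MEKi. It rose by 0.74 ± 0.07 and was lower with both inhibitors (-0.27, adjusted p = 0.00954, and -0.36, adjusted p = 0.000831), but both calls were lost on a common FPKM sum (-0.08, adjusted p = 0.292, and -0.10, adjusted p = 0.194). The inhibitor groups differed by -0.09, with a 95% interval of -0.24 to 0.05. Nob1, the nuclease that makes the last cut of the 18S rRNA, rose by 0.65, and its inhibitor changes of -0.12 and -0.19 did not pass (adjusted p = 0.246 and 0.0553).

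All 17 genes of 60S assembly rose with TCR (0.20 to 1.49), which 33.6% of all genes did. Rescaled to a common FPKM sum, 13 were called higher and 1 lower (15.3% and 60.9% of all genes). Under the deposited scaling 16 were lower with PI3Kdi and 14 with MEKi (12.8% and 18.2% of all genes). On a common FPKM sum 7 were lower with PI3Kdi (5.04% of all genes), while with MEKi 5 were lower and 3 higher (5.88% and 50.2% of all genes). Ppan, the homologue of a yeast 60S assembly factor, stood at 63.5, 61.7 and 61.7 FPKM in unstimulated CTL, 192, 164 and 172 FPKM with TCR, 98.0, 82.1 and 91.7 FPKM with PI3Kdi, and 137, 147 and 139 FPKM with MEKi. All 4 groups were separate, in the order unstimulated, PI3Kdi, MEKi, TCR. Its rise was 2.82-fold (log2 change 1.49 ± 0.07, adjusted p = 6.72e-11), and the level with PI3Kdi was 48.5% lower in the means (log2 change -0.96 ± 0.07, 95% interval -1.11 to -0.81, adjusted p = 4.39e-07). The MEKi change was -0.32 ± 0.07 (adjusted p = 0.00237) and -0.06 on a common FPKM sum, without a call. The difference between the inhibitor groups, 0.64 ± 0.07, was the largest of any member (adjusted p = 8.32e-06, 0.72 on a common sum). The Ppan gene holds 2 small nucleolar RNA genes.

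Bop1, a subunit of the PeBoW complex of 60S assembly, showed the smallest rise. It stood at 73.0, 72.8 and 68.0 FPKM in unstimulated CTL, 92.2, 74.8 and 79.6 FPKM with TCR, 69.3, 61.0 and 64.9 FPKM with PI3Kdi, and 83.2, 85.1 and 85.0 FPKM with MEKi. The rise of 0.20 ± 0.07 (adjusted p = 0.0203) was -0.21 on a common FPKM sum, and it was lost without TCR replicate 1 (0.12, adjusted p = 0.115) or unstimulated replicate 3 (0.17, adjusted p = 0.075). The PI3Kdi change was -0.33 ± 0.07 (adjusted p = 0.00324), and the groups did not overlap. On the common sum it was -0.15 (adjusted p = 0.0673). With MEKi the value of 0.04 had a 95% interval of -0.11 to 0.20 (0.31 on the common sum, adjusted p = 0.00079), and the inhibitor groups differed by 0.38 ± 0.07 (adjusted p = 0.00103). Its partners in PeBoW, Pes1 and Wdr12, rose by 0.68 and 0.89 and were lower with both inhibitors under the deposited scaling. On the common sum Wdr12 kept its call with PI3Kdi only, and the value of Pes1 with MEKi was 0.02.

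Noc3l, Ddx18, Mrto4 and Brix1 also act in 60S assembly. Noc3l stood at 12.92, 12.95 and 12.48 FPKM in unstimulated CTL, 29.9, 30.4 and 28.9 FPKM with TCR, 22.9, 25.8 and 23.7 FPKM with PI3Kdi, and 20.7, 22.1 and 22.5 FPKM with MEKi. It rose 2.33-fold (adjusted p = 1.89e-10) and had log2 changes of -0.30 with PI3Kdi and -0.45 with MEKi (-0.12, adjusted p = 0.216, and -0.19, adjusted p = 0.043, on a common FPKM sum). Ddx18, a DEAD-box RNA helicase, stood at 53.7, 53.7 and 54.6 FPKM in unstimulated CTL, 79.1, 80.2 and 79.1 FPKM with TCR, 62.6, 66.4 and 63.8 FPKM with PI3Kdi, and 53.4, 59.1 and 56.4 FPKM with MEKi. With MEKi its level overlapped that of unstimulated CTL: the change against TCR was -0.50 ± 0.05 (adjusted p = 2.64e-06, -0.24 on a common sum), and the difference from unstimulated CTL was 0.06, with a 95% interval of -0.05 to 0.16. Ddx18 shares 34.6% of its 100-base stretches with another transcript, the largest share of any member, so its reads may be split. Mrto4, which holds the place of the stalk protein P0 in the precursor, stood at 98.8, 108 and 115 FPKM in unstimulated CTL, 190, 165 and 163 FPKM with TCR, 149, 113 and 122 FPKM with PI3Kdi, and 125, 121 and 120 FPKM with MEKi. It changed by -0.44 ± 0.09 with PI3Kdi and -0.49 ± 0.09 with MEKi (adjusted p = 0.00247 and 0.000634), and the inhibitor groups overlapped (difference -0.06, 95% interval -0.25 to 0.13). Brix1 stood at 35.6, 35.0 and 40.3 FPKM in unstimulated CTL, 52.6, 53.6 and 50.3 FPKM with TCR, 48.2, 47.2 and 44.3 FPKM with PI3Kdi, and 37.7, 41.9 and 42.4 FPKM with MEKi. Its MEKi change was -0.36 ± 0.07 (adjusted p = 0.000751, -0.10 on a common sum without a call). The difference of -0.20 between the inhibitor groups (adjusted p = 0.039) was lost on a common sum (-0.12, adjusted p = 0.175) and without PI3Kdi replicate 1 or 2 or MEKi replicate 1 or 2 (adjusted p = 0.0525 to 0.161).

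The 5 multifunctional nucleolar proteins had the largest summed level of any class in unstimulated CTL, most of it from Npm1. All 5 rose with TCR (0.44 for Ncl to 0.81 for Ddx21), which 33.6% of all genes did. On a common FPKM sum 4 of the 5 kept the call (15.3% of all genes rose), and Ncl did not (0.03, adjusted p = 0.617). Npm1, nucleophosmin, a histone and ribosome chaperone, stood at 962, 910 and 1164 FPKM in unstimulated CTL, 1461, 1588 and 1507 FPKM with TCR, 1388, 1298 and 1298 FPKM with PI3Kdi, and 1204, 1218 and 1215 FPKM with MEKi. It rose by 0.59 ± 0.08 (adjusted p = 1.07e-05). The MEKi change was -0.32 ± 0.08 (adjusted p = 0.00582, -0.06 on a common FPKM sum without a call), and the PI3Kdi change of -0.19 did not pass (95% interval -0.37 to -0.02, adjusted p = 0.092). Npm1 has processed copies in the genome and shares 12.7% of its stretches with another transcript, and the member counts with and without it differed by at most 1. Ddx21, an RNA helicase of the nucleolus, stood at 105, 108 and 105 FPKM in unstimulated CTL, 181, 193 and 182 FPKM with TCR, 150, 157 and 155 FPKM with PI3Kdi, and 130, 142 and 132 FPKM with MEKi. All 4 groups were separate, here with MEKi below PI3Kdi. The changes were -0.27 ± 0.05 with PI3Kdi (adjusted p = 0.00141) and -0.46 ± 0.05 with MEKi (adjusted p = 7.24e-06), and the inhibitor groups differed by -0.19 ± 0.05 (adjusted p = 0.00906). On a common sum the MEKi call was kept (-0.20, adjusted p = 0.0126), and the other 2 were lost (-0.08 and -0.11).

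Other genes of the pathway were counted from lists. Of 116 further ribosome biogenesis genes 102 rose and 5 fell with TCR, 62 were lower and 0 higher with PI3Kdi, and 75 were lower and 1 higher with MEKi, with medians of 0.53, -0.22 and -0.25 that became 0.12, -0.04 and 0.01 on a common FPKM sum. On that sum 52 were higher and 22 lower with TCR, 10 and 14 with PI3Kdi, and 21 and 7 with MEKi. Under the deposited scaling 33.6% of all genes rose and 34.9% fell with TCR. The shares of all genes higher and lower were 12.7% and 12.8% with PI3Kdi, and 18.9% and 18.2% with MEKi. On the common sum they were 15.3% and 60.9% with TCR, 34.6% and 5.04% with PI3Kdi, and 50.2% and 5.88% with MEKi. Of the 16 RNA polymerase I and SL1 genes outside the 53, 11 rose and 1 fell with TCR, 5 were lower with PI3Kdi, and 8 were lower and 1 higher with MEKi under the deposited scaling (4 higher and 5 lower, 2 higher, and 2 lower and 3 higher on a common sum). Taf1a, an SL1 subunit, rose from 6.24 to 15.1 FPKM (log2 change 1.27 ± 0.12) and Top1, the topoisomerase that relieves strain in transcribed DNA, from 47.4 to 112 FPKM (1.24 ± 0.07). With MEKi Top1 changed by -0.95 ± 0.07 (adjusted p = 1.36e-07). Baz2a, a subunit of the complex that silences rDNA, fell on stimulation, from 15.7 to 10.9 FPKM (-0.53 ± 0.09, adjusted p = 0.000166). The 82 cytosolic ribosomal protein genes, the products that ribosome biogenesis factors assemble, had 79 higher and 0 lower with TCR (median 0.39), but 4 higher and 3 lower on a common sum (median -0.03) and 4 higher and 16 lower after quantile normalisation. With MEKi 49 of them were lower and with PI3Kdi 5 under the deposited scaling, against 0 and 0 on a common sum, and 0 and 1 after quantile normalisation. Those higher with MEKi and PI3Kdi were 0 and 0 under the deposited scaling, 1 and 1 on a common sum, and 9 and 3 after quantile normalisation. The 8 subunits specific to RNA polymerase II had a median of -0.11 with TCR, with 2 higher and 3 lower. Of 14 genes of RNA polymerase III and its factors, 9 were higher and 4 lower, and on a common sum 4 and 5.

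Introns of the members are also a source of small nucleolar RNAs. At least 1 annotated snoRNA gene lay within 9 of the 53 members (17%), against 254 of the 10316 genes of the table that were matched to the annotation (2.46%). The 9 were Taf1d, Nop56, Nop58, Dkc1, Wdr43, Tsr1, Ppan, Gnl3 and Ncl. Poly(A)-selected libraries do not measure these RNAs.

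**Figure D5:**
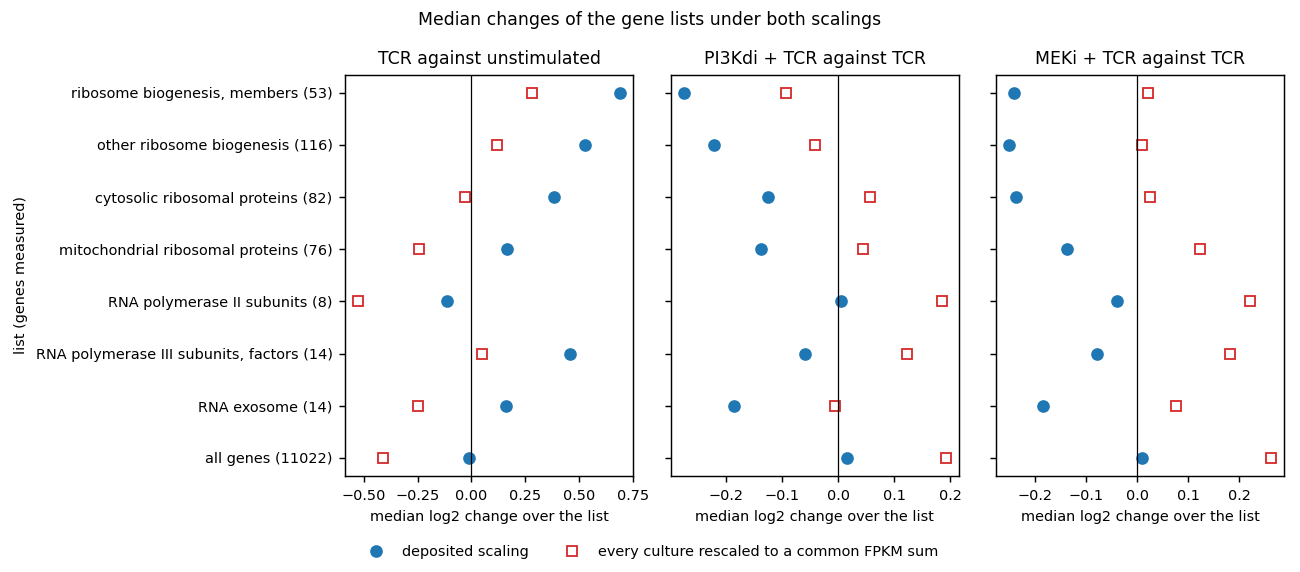
Median log2 change over each gene list in 3 comparisons, under the deposited scaling (filled circles) and after rescaling every culture to a common FPKM sum (open squares). The 53 members lie at 0.69 and 0.28 with TCR, the farthest right of the lists shown. With MEKi the open squares of the 8 sets drawn lie above 0, the members at 0.02 and all genes at 0.26.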

How the data were processed

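mRNA of 12 P14 CTL cultures (4 groups of 3) was sequenced as 100 bp paired-end reads. Per the labels and the study's methods, the authors aligned reads to mm10 with STAR, counted them with Subread, filtered low genes, applied TMM scaling and deposited FPKM values for 11022 genes. Low values did not resolve into whole reads, so no count test was run. At the best-fitting depth 44.1% to 60.6% lay within 0.15 of one. Chance gives 30% at a fixed depth, and more at a depth chosen for its fit. Here limma 3.58.1 (R 4.3.3) was fitted on log2(FPKM + 0.1) over all genes and 12 cultures with an intensity trend and no block, and p-values were Benjamini-Hochberg adjusted over all genes. Intervals in brackets are 95% and unadjusted. SE is the standard error and SD the standard deviation. The fit was tested on simulated data with independent noise in each culture, which does not cover pairing of cultures or a shift of the FPKM sum. Alternatives were a common FPKM sum per culture, quantile normalisation, other pseudocounts, a low-value filter, a 1.5-fold limit, limma's treat test, fits of the compared groups alone, without the trend or with the replicate number as a block, and leaving out single cultures. Values in every culture are given for the RNA polymerase I genes, the most abundant member of each class and, in each comparison, up to 3 called members that moved furthest in either direction, at most 2 of a class. The members, classes and lists were chosen with earlier results of these data known.

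Replicates are numbered 1 to 3 in every group, but whether equal numbers mean the same mouse is not given in the sources used here. Over 9899 genes, deviations of same-numbered cultures correlated at 0.239 to 0.451 (TCR + PI3Kdi with TCR), 0.122 to 0.182 (TCR + MEKi with TCR), 0.137 to 0.149 (TCR + MEKi with TCR + PI3Kdi), 0.117 to 0.147 (TCR + MEKi with unstimulated), 0.004 to 0.153 (TCR with unstimulated) and -0.062 to 0.114 (TCR + PI3Kdi with unstimulated). All 3 pairs lay above 0.1 in the first 4. Whether same-numbered cultures share a mouse was not tested, and the main fit does not pair cultures by replicate number. With the replicate number as a block, 45 members were lower with PI3Kdi and 41 with MEKi (14.2% and 19.2% of all genes). Exon overlaps and shared stretches came from GENCODE M21 (GRCm38), to which 10316 of the genes were matched, and promoters from RefSeq (GRCm38.p6). Depth was estimated from the steps of low values, which did not resolve into whole reads, so depths and read numbers are rough. Counting errors cover counting only.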

Additional observations from a re-analysis of the deposited data

Results flagged for a closer look

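The effects of PI3Kdi and MEKi, each against the same TCR cultures, differed in 16 members by limma's test of the difference itself (TCR + MEKi minus TCR + PI3Kdi, log2 scale, adjusted p under 0.05 over all genes), 10 higher and 6 lower, where 14.5% of all genes were higher and 14.4% lower, so the share of members lay near that of all genes. The level was higher with MEKi for Ppan (0.638), Bop1 (0.377), Noc2l (0.287), Rrp12 (0.245), Polr1c (0.244), Rrp1b (0.221), Rrp9 (0.207), Ubtf (0.178), Imp4 (0.164) and Nop56 (0.161). It was lower with MEKi for Utp14a (-0.288), Brix1 (-0.195), Ddx21 (-0.193), Ddx18 (-0.192), Rrn3 (-0.190) and Gnl2 (-0.184). For Rrn3 the groups overlapped. On a common FPKM sum the 10 higher members and Utp14a kept their calls. Among named members, the call for Rrn3 was lost without PI3Kdi replicate 1 or 2 or MEKi replicate 1 or 3 (adjusted p = 0.0922 to 0.149), and that for Ubtf without PI3Kdi replicate 2 or 3 or MEKi replicate 1 or 2 (adjusted p = 0.0611 to 0.125). A call was gained for Nhp2 without PI3Kdi replicate 1 (0.249) and for Taf1d without PI3Kdi replicate 3 (-0.207).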

How the results depend on the processing

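Pseudocounts and the low-value filter changed no call among the 84 comparisons of named members. With a 1.5-fold limit in place of 2-fold, 37 members passed upwards with TCR (16.9% of all genes), 1 downwards with PI3Kdi (3.29%), 1 upwards between inhibitors (4.44%), and 10 (PI3Kdi, 14.2%) and 13 (MEKi, 13.9%) upwards against unstimulated CTL. On a common FPKM sum, 2 members passed 2-fold upwards with TCR (5.87% of all genes) and 0 with PI3Kdi against unstimulated CTL (5.65%). Against TCR, 13 were lower with PI3Kdi (5.04%), and 13 were called with MEKi, of them 7 lower (5.88%) and 6 higher (50.2%). The medians were 0.280 (TCR), -0.094 (PI3Kdi), 0.021 (MEKi, reversed), 0.127 (between inhibitors), and 0.224 and 0.268 (PI3Kdi and MEKi against unstimulated). On that scale 4 called members had the opposite sign with TCR, 3 with PI3Kdi and 17 with MEKi. The named members among them were Bop1 (-0.211) and Rrn3 (-0.085) with TCR, Ubtf with PI3Kdi (0.016), and Nop56 (0.133, and 0.057 after quantile normalisation), Polr1b (0.034), Rrn3 (0.047) and Rrp12 (0.104) with MEKi. After quantile normalisation 4 members passed 2-fold upwards with TCR (8.36% of all genes), 28 were lower with PI3Kdi (10.3%) and 27 were called with MEKi, 26 of them lower (15.5%), with medians of 0.553, -0.167 and -0.164. With limma's treat test 3 passed upwards with TCR (5.76%), and 0 (PI3Kdi, 4.45%) and 1 (MEKi, 4.35%) against unstimulated CTL. Without the trend 10 members differed between inhibitors, 7 higher and 3 lower (13.5% of all genes each way). The cause was not tested.

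Leaving out single cultures, the members called ranged from 52 to 53 with TCR, 36 to 44 with PI3Kdi, 34 to 40 with MEKi, 10 to 14 between inhibitors, and 47 to 50 in both comparisons with unstimulated CTL. From 7 to 9 members passed 2-fold with TCR and 0 to 1 with PI3Kdi. These ranges count both directions together. The shares of all genes called in these fits are not given here, so the ranges describe the members only. Of 67 calls in named members, 14 were lost in at least 1 such fit and 0 reversed.

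With the replicate number as a block, 17 members differed between inhibitors (10 higher and 7 lower, against 16% and 15.5% of all genes). For PI3Kdi against unstimulated CTL, 49 members were higher and 1 was lower (32.5% and 31.8% of all genes). Among named members the block changed no call other than that of Rrp12 with MEKi (adjusted p = 0.0593). With 3 cultures a group, and a counting error roughly estimated at 5.2% for the member with fewest reads, small differences may go uncalled.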
